A study of Mus musculus with 24 samples.

Results

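The 38 genes described here carry out 2 linked tasks in mouse cells, the ATF4 stress programme and the supply of amino acids. They were taken by symbol from a membership list that was made with earlier results of these data known. All 38 were found among the 19134 genes measured in both control and paused cells. They comprise 7 transcription factors and cofactors, 5 stress effectors, 7 enzymes of serine and one-carbon metabolism, 7 other amino acid enzymes, 10 amino acid transporters and 2 genes of tRNA charging and export. The cells were E14 mouse embryonic stem cells, an established line grown on gelatin in serum with leukaemia inhibitory factor. Poly(A) RNA was sequenced from wild-type cells and from 2 lines with a knockout of Smad2, the factor that carries Nodal and activin signals into the nucleus. Each genotype was kept for 12 h in control medium or with 200 nM INK128, which blocks the kinase mTOR and puts these cells into a paused, diapause-like state, so the 24 libraries form 6 groups of 4. The sources used here do not say how the knockouts were made, whether each line is a single clone, or whether the 4 replicates of a group were separate cultures.

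ATF4 is a bZIP transcription factor whose mRNA is translated preferentially when kinases such as GCN2 and PERK phosphorylate the initiation factor eIF2alpha, for example when amino acids run short or proteins misfold. It pairs with C/EBP proteins at composite C/EBP-ATF response elements and switches on enzymes that make serine, asparagine and proline, transporters that bring amino acids into the cell, and stress genes such as Trib3 and Chac1. In growing cells mTOR complex 1 also raises ATF4 protein, and serine made through Phgdh feeds the one-carbon units needed for nucleotide synthesis. ATF4 activity is set largely by translation, so its own transcript is a limited guide to it.

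The promoter sequences show where the element that defines the programme lies in these genes. RefSeq promoter windows of the GRCm38.p6 assembly, which hold 250 bases before to 50 bases after an annotated transcript start, were held for 33 of the 38 genes; Cth, Slc1a5, Slc7a3, Slc7a5 and Slc38a1 were not matched. An exact match to TGATGNAAN on either strand, N being any base, was found in 11 of these 33 genes (33.3%), against 413 of the 13624 genes of both deposited tables with a window (3.03%) and 1299 of all 32851 windows (3.95%). The stricter form TGATGCAAT, which is contained in the looser one and so counted in both, was found in Nupr1 and Pycr1, 2 of 33 genes, against 0.213% of the genes of both tables. Several of these genes are textbook ATF4 targets because such an element was described in them, so the share describes the list and is not independent of how it was made. The following stretches, written 5′ to 3′ as the gene reads with the match in capitals, are examples of the matches upstream of the start. They hold Chac1 and Nupr1, the genes with the lowest paused levels of the 38, Herpud1, a further stress effector, Pycr1, which has the stricter form, Slc7a11, the only gene with a pair of matches, and Asns, the best known element, whose gene hardly differed in level.
Chac1, chr2:119351023-119351081, plus strand: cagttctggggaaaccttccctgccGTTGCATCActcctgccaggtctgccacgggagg
Nupr1, chr7:126625548-126625606, minus strand: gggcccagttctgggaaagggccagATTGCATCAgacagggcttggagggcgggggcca
Herpud1, chr8:94386291-94386349, plus strand: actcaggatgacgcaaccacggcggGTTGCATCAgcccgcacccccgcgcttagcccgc
Pycr1, chr11:120643818-120643876, minus strand: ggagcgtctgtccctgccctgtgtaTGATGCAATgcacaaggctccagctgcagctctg
Slc7a11, chr3:50443646-50443704, minus strand: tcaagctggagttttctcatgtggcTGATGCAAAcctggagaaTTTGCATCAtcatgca
Asns, chr6:7693199-7693257, minus strand: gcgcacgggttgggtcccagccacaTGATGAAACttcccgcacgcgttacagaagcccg
Counted in bases from the transcript start of the window, negative upstream, the match of Chac1 begins at -194 and those of Nupr1, Herpud1 and Pycr1 at -111, -113 and -103. In Slc7a11, matches of opposite orientation begin at -66 and -48, and in Asns the match begins at -23. The other 5 genes with a match are Atf3 at -111, Got1 at -103, Vldlr at -201, Slc1a4 at -5 and Trib3 at 13. In Slc7a11 and Vldlr that start lies inside the gene's annotated span and is not its outermost start. A match is a description of the letters and not evidence of a bound site, and the lack of one says only that these letters are not in this window.

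**Figure D1:**
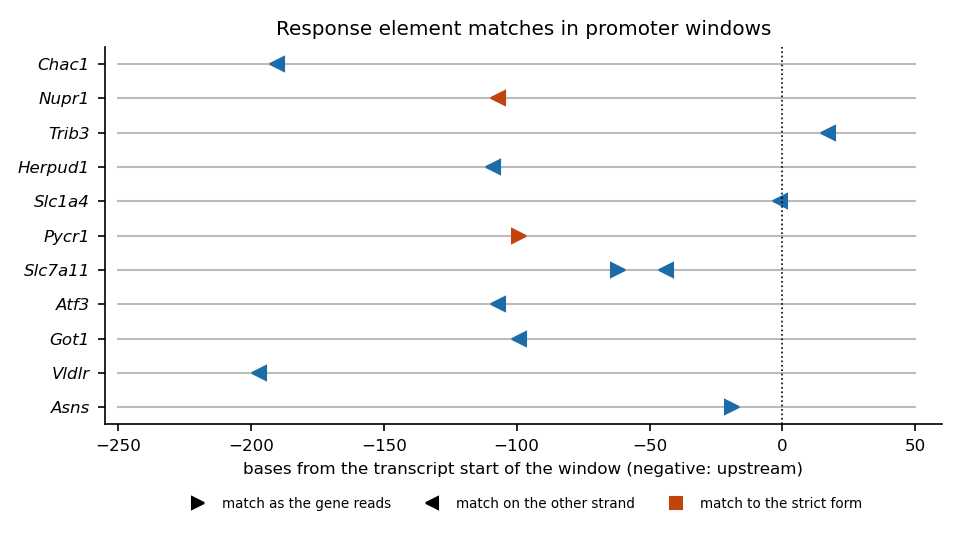
Positions of matches to TGATGNAAN in the promoter windows of the 11 genes that hold one, in bases from the transcript start of the window (negative is upstream). Triangles point right for a match as the gene reads and left for one on the other strand; orange marks the stricter form TGATGCAAT in Nupr1 and Pycr1, and 10 of the 12 matches lie upstream by more than 5 bases.

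The values come from a deposited table of results per condition, 2 in all, which give for each gene a mean normalized read count over libraries, a log2 change between genotypes, its standard error (SE) and an adjusted p. Values of single libraries are not analysed here, so neither the spread within a group nor the separate knockout lines can be shown. The files do not name the numerator of the change. Knockout over wild type was taken as its direction, since Smad2, the targeted gene, fell in both conditions, by 0.35 (SE 0.07, adjusted p = 6.5e-06) in control and by 0.63 (SE 0.06, adjusted p = 4.1e-26) in paused cells (log2) per the authors' deposited tables, or 78.6% and 64.6% of wild type. All 8 markers of embryonic stem cells were abundant, with control means of 8797 to 51710 normalized counts per the authors' deposited table. In the knockout, 2 of them were called higher (an adjusted p below 0.05) and 1 lower in control cells, and 2 higher and 0 lower in paused cells. The higher ones were Klf4, by 0.56 and 0.26, and Nanog, by 0.32 and 0.18, per the authors' deposited tables. Pou5f1 had a change of -0.18 in control cells per the authors' deposited table. Markers of primitive endoderm, another cell type of the early embryo, were rare, their 8 means summing to 1154 counts in control and 1962 in paused cells per the authors' deposited tables, and none was listed at 0. Of these 8, however, 6 were called higher (an adjusted p below 0.05) in the knockout in control and 7 in paused cells, with a median log2 change of 1.06 in both, per the authors' deposited tables. Of 8 trophoblast markers, whose means summed to 17321 counts in control and 19746 in paused cells, most of them from Krt8, Krt18 and Tfap2c, which did not pass, 2 were called higher and 2 lower in control and 2 higher and 1 lower in paused cells per the authors' deposited tables. Those higher were Hand1, by 1.95 and 2.69, and Gata3, by 1.54 and 2.04, per the authors' deposited tables. Cdx2 was called lower in both conditions, with changes of -0.84 and -0.92 per the authors' deposited tables. Eomes was called lower in control cells alone, with changes of -0.94 and -0.06 per the authors' deposited tables. Of 7 fibroblast markers in control and 6 in paused cells, with means summing to 932 and 966 counts, 1 was called higher in each, namely Pdgfra, which is also among the 8 primitive endoderm markers, and 4 and 3 were called lower, among them Col1a1 with log2 changes of -2.79 and -3.53, per the authors' deposited tables. The part of these markers in the changes described next was not tested, and in bulk RNA fewer cells of a type and less RNA per cell cannot be told apart.

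Most of the 38 transcripts stood lower in paused than in control cells. Levels were set side by side as parts per 1000000 (ppm) of the summed mean counts of each table, since the tables were normalized separately. The 38 genes together took 3926 ppm in control and 2566 ppm in paused cells, or 65.4% of the control share. The level was lower in 35 of the 38 and at least 2-fold lower in 17, with a median log2 ratio of -0.87, or 54.7% of control. Over all 19134 genes the median log2 ratio was 0.09, and 5.28% were at least 2-fold lower. Among genes with an average of at least 5 ppm over the tables, which 33 of the 38 reached, 44.3% were lower in paused cells and 3.47% at least 2-fold lower. These ratios are descriptions with no test and no replicate check, because each mean covers libraries of more than 1 genotype and the spread between libraries is not given. The 38 genes were also chosen with earlier results of these data known, so the contrast with all genes is not independent of that choice.

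Chac1 and Nupr1 stood lowest, and 3 of the 5 stress effectors were more than 3-fold lower. Chac1, an enzyme that degrades glutathione, had a mean of 423 normalized counts in control against 57.4 in paused cells per the authors' deposited tables, 14.1% of the control share. Nupr1, a small chromatin-associated stress protein, had means of 181 and 25.9 per the authors' deposited tables, 14.9% of the control share. Trib3, a pseudokinase that restrains ATF4 and AKT, stood at 27.7% and Herpud1, a factor of endoplasmic reticulum protein degradation, at 32.2% of control. These 4 genes had between 3.11-fold and 7.09-fold lower levels in paused cells. Stc2, a secreted glycoprotein, stood at 58.1% and Vldlr, a lipoprotein receptor, at 79.9%, so the 5 effectors differed widely among themselves.

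Nupr1 apart, the factors at the head of the programme stood closer to their control levels than most of its effectors. Atf4 had a mean of 7349 normalized counts in control against 5171 in paused cells per the authors' deposited tables, 73.1% of the control share. Atf5, a related factor under similar translational control, stood at 61.7% and Atf3, an inducible stress factor, at 55.7%. Cebpb, a C/EBP partner, stood at 93.3% of control. Ddit3, which codes for the pro-apoptotic factor CHOP, and Cebpg, the usual C/EBP partner of ATF4, were 2 of the 3 genes with a higher paused level, at 124% and 107% of control. The median log2 ratio was -0.45 over the 7 factors and -1.64 over the 5 effectors.

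In serine and one-carbon metabolism all 7 enzymes were lower in paused cells, Mthfd2 most and Shmt1 least. Mthfd2, the mitochondrial folate enzyme, had means of 3905 and 705 normalized counts per the authors' deposited tables, 18.8% of the control share. Phgdh, Psat1 and Psph, which carry out the consecutive steps from a glycolytic intermediate to serine, stood at 38.5%, 32.3% and 30.4% of control. Psat1 had the highest mean count of this role in control cells but not in paused cells, at 11269 normalized counts in control against 3504 in paused cells per the authors' deposited tables. Shmt1 and Shmt2, the cytosolic and mitochondrial enzymes that split serine into glycine and a one-carbon unit, stood at 70.3% and 56.5%, and Mthfd1l, a mitochondrial formate-producing enzyme, at 69.4%. The 3 serine-making genes and Mthfd2 were thus all more than 2-fold lower, and the other 3 were not.

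Asns stood apart from the other amino acid enzymes. It codes for asparagine synthetase, and its mean was 10649 normalized counts in control against 10943 in paused cells per the authors' deposited tables, 107% of the control share. Per kilobase of exon it had the highest mean of the 38 genes, 3894 normalized counts without and 4001 with INK128. Of the proline-making enzymes, Aldh18a1 stood at 53.7% and Pycr1 at 35.6% of control. In the transsulfuration route from homocysteine to cysteine, Cth stood at 35.0% and Cbs at 65.1%. Of the transaminases, Gpt2 stood at 39.6% and Got1 at 77.9%. The lower levels were therefore not shared evenly even among enzymes of 1 route.

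All 10 transporters were lower in paused cells, 6 of them at least 2-fold. These were Slc1a4 at 33.8%, Slc6a9 at 35.8%, Slc7a3 at 37.4%, Slc7a11 at 42.1%, Slc1a5 at 47.7% and Slc7a1 at 48.0% of control. They import neutral amino acids (Slc1a4, Slc1a5), glycine (Slc6a9), cationic amino acids (Slc7a1, Slc7a3) and cystine (Slc7a11). Slc7a5, the large neutral amino acid exchanger, stood at 52.1%, while its heavy chain partner Slc3a2 stood at 77.1%. Of the sodium-coupled system A carriers, Slc38a2 stood at 64.0% and Slc38a1 at 96.1%. Xpot, which exports tRNA from the nucleus, stood at 60.9% and Eprs, which charges tRNA with glutamate and proline, at 95.3%. The 11 genes with a promoter match had a median log2 ratio of -1.49, the 22 genes whose window had no match -0.71, and the 5 without a window -1.07; the ranges overlap, and Asns, with a match, lies at the top of the first group.

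**Figure D2:**
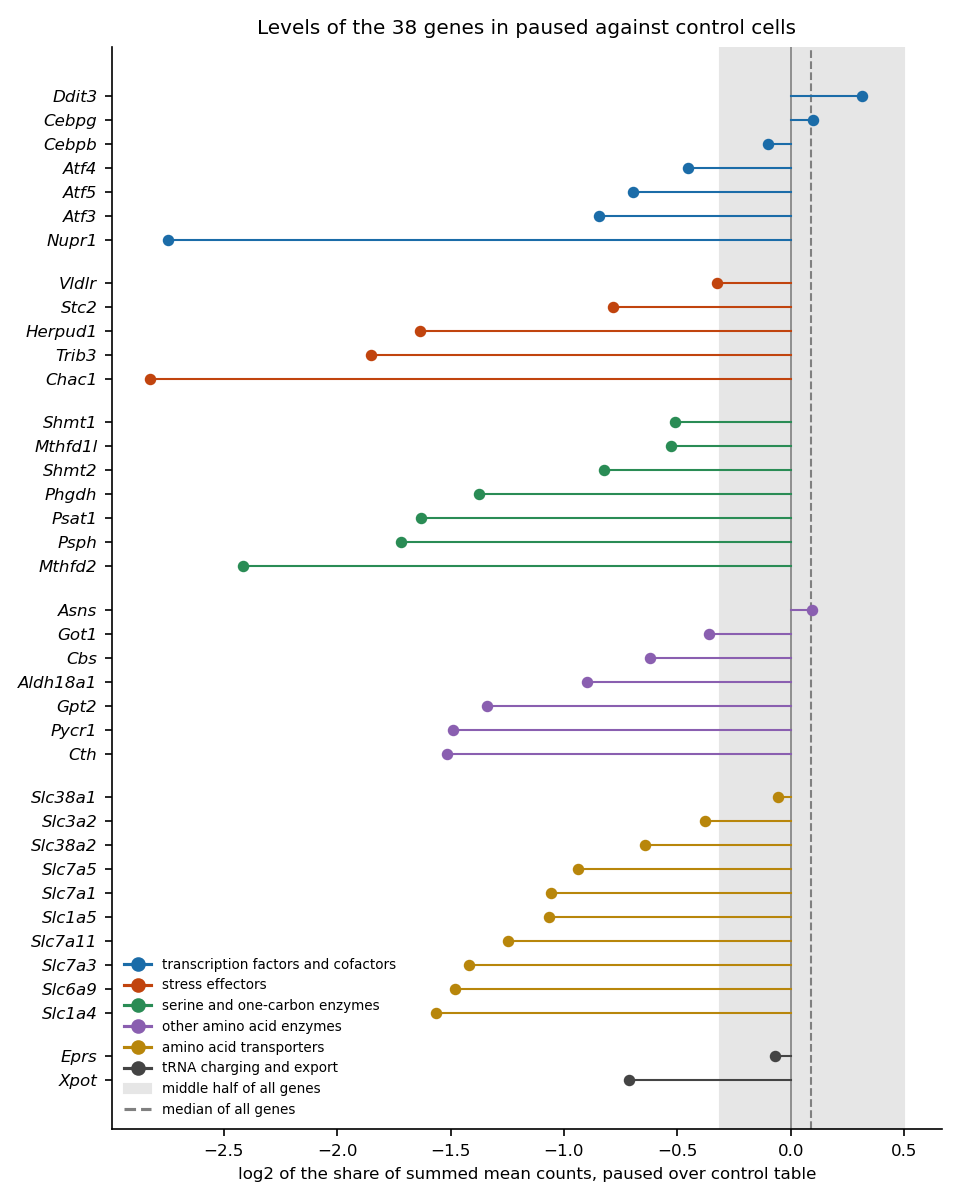
Log2 ratio of each gene's share of the summed mean counts, paused over control, ordered within roles, with the median (dashed) and the span between the quartiles (grey) of all genes. Of the 38 points, 35 lie below 0, and the lowest are Chac1 (-2.83), Nupr1 (-2.75) and Mthfd2 (-2.41), while Ddit3, Cebpg and Asns lie above 0.

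Neighbouring pathways did not all stand as low. Among 14 genes of the eIF2alpha kinases, exchange factors and phosphatase arms that act upstream of ATF4, the median log2 ratio was -0.00 and none was 2-fold lower. Among 21 further genes linked to ATF4 or stress it was -0.03 with 3 at least 2-fold lower, namely Ddit4, Trib2 and Gdf15. For 20 genes of the ATF6 and XBP1 branches of the unfolded protein response it was -0.64 with 7 at least 2-fold lower. For 19 cytosolic aminoacyl-tRNA synthetases it was -0.45 with none, for 20 further one-carbon genes -0.35 with 2, for 22 further amino acid enzymes -0.09 with none, and for 24 further transporters 0.13 with 2. Over these lists together, 14 of 138 genes were at least 2-fold lower, against 17 of the 38. The lists and the 38 genes were chosen with earlier results of these data known, and this contrast was not tested. Names in this paragraph were chosen after their values were seen. They include Hspa5, the main chaperone of the endoplasmic reticulum, at 31.4% of control, and Ddit4, an inhibitor of mTOR signalling, at 33.4%. Slc38a5, a glutamine carrier, stood at 22.9%. Its means were only 61.0 in control and 13.4 normalized counts in paused cells per the authors' deposited tables, so this ratio rests on few counts. In the other direction, Txnip, an inhibitor of thioredoxin and glucose uptake, stood at 246%.

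**Figure D3:**
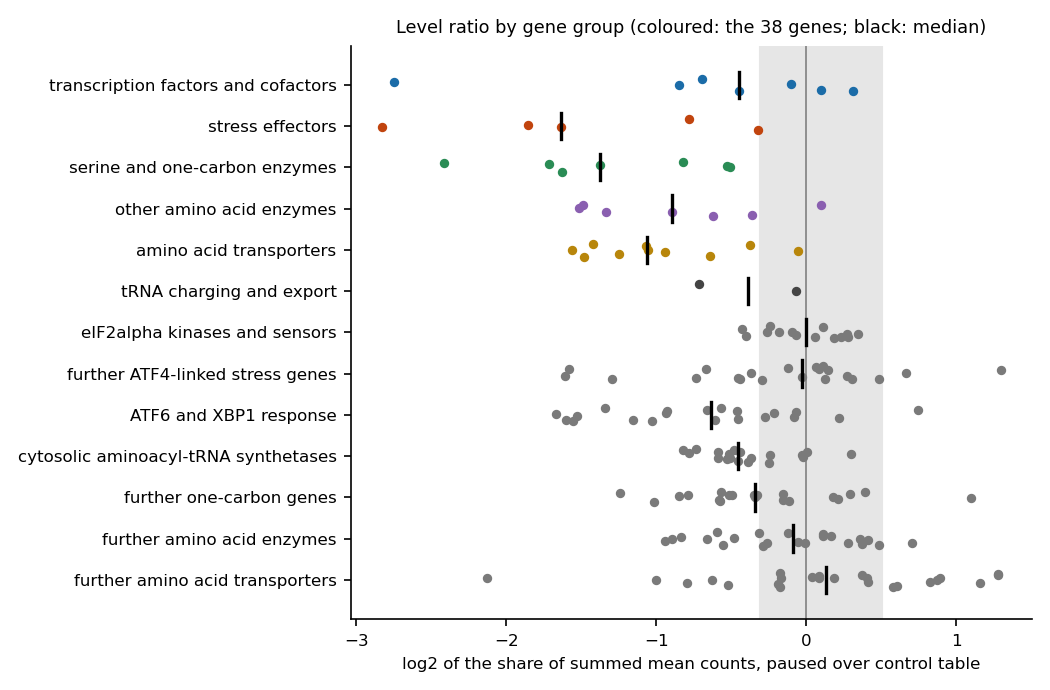
Log2 ratio of the level, paused over control, for the 6 roles of the 38 genes (coloured) and 7 lists of other pathway genes (grey), 1 point per gene, with the median as a black bar and the span between the quartiles of all genes as a grey band. The medians of the stress effectors (-1.64), serine and one-carbon enzymes (-1.38) and transporters (-1.06) lie below those of all 7 other lists, of which the ATF6 and XBP1 list is lowest at -0.64. So does that of the other amino acid enzymes (-0.90). The medians of the transcription factors (-0.45) and of the tRNA genes (-0.39) lie above that of the ATF6 and XBP1 list.

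Many of the 38 genes differed between Smad2 knockout and wild-type cells, by small amounts. With at most 2 knockout lines, not given apart, other differences between the lines cannot be told apart from loss of Smad2. Where the text below speaks of an effect of Smad2 loss, it means this contrast of lines. In control cells 17 of the 38 were called at an adjusted p under 0.05 per the authors' deposited table, 5 higher and 12 lower in the knockout. Of all genes tested there, 19.5% were called higher, 21.9% lower and 41.4% in either direction. In paused cells 21 were called per the authors' deposited table, 8 higher and 13 lower, against 20.5% higher, 22.0% lower and 42.6% in either direction over all genes. Among genes at 5 ppm or more in the table itself, 50.0% of all genes were called in control and 51.6% in paused cells, and 14 of 34 and 18 of 31 of the genes described here. These shares lie near the background, so the number of calls is not particular to the list. The median log2 change was -0.05 in control and -0.10 in paused cells, against 0.00 and -0.00 over all genes. At least 2-fold changes were called for 1 gene in control and 0 in paused cells, against 6.98% and 7.10% of all genes.

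Calls in both conditions had like signs, as they did for nearly all genes. Of the 38 genes, 13 were called in both conditions in the same direction, 0 in opposite directions, 4 in control cells only, 8 in paused cells only and 13 in neither. Of all 19134 genes, 5792 were called in both in the same direction, 31 in opposite directions, 2282 in control cells only, 2570 in paused cells only and 8459 in neither. When the statistic was scaled so that its middle spread equals that of a standard normal, 0 of the 38 were called in either condition, against 293 and 450 of all genes. When the genotypes were given equal summed counts, the split in control cells moved from 5 higher and 12 lower to 10 higher and 9 lower. In paused cells it moved from 8 and 13 to 9 and 11. This setting assumed that each mean covers the wild-type libraries and those of both knockout lines, which the sources used here do not state. Of the 19 genes then called in control cells, 14 were among the 17 called before. Of the 20 in paused cells, 19 were among the 21 called before. Calls lost this way are given by gene below, and calls gained are not.

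**Figure D4:**
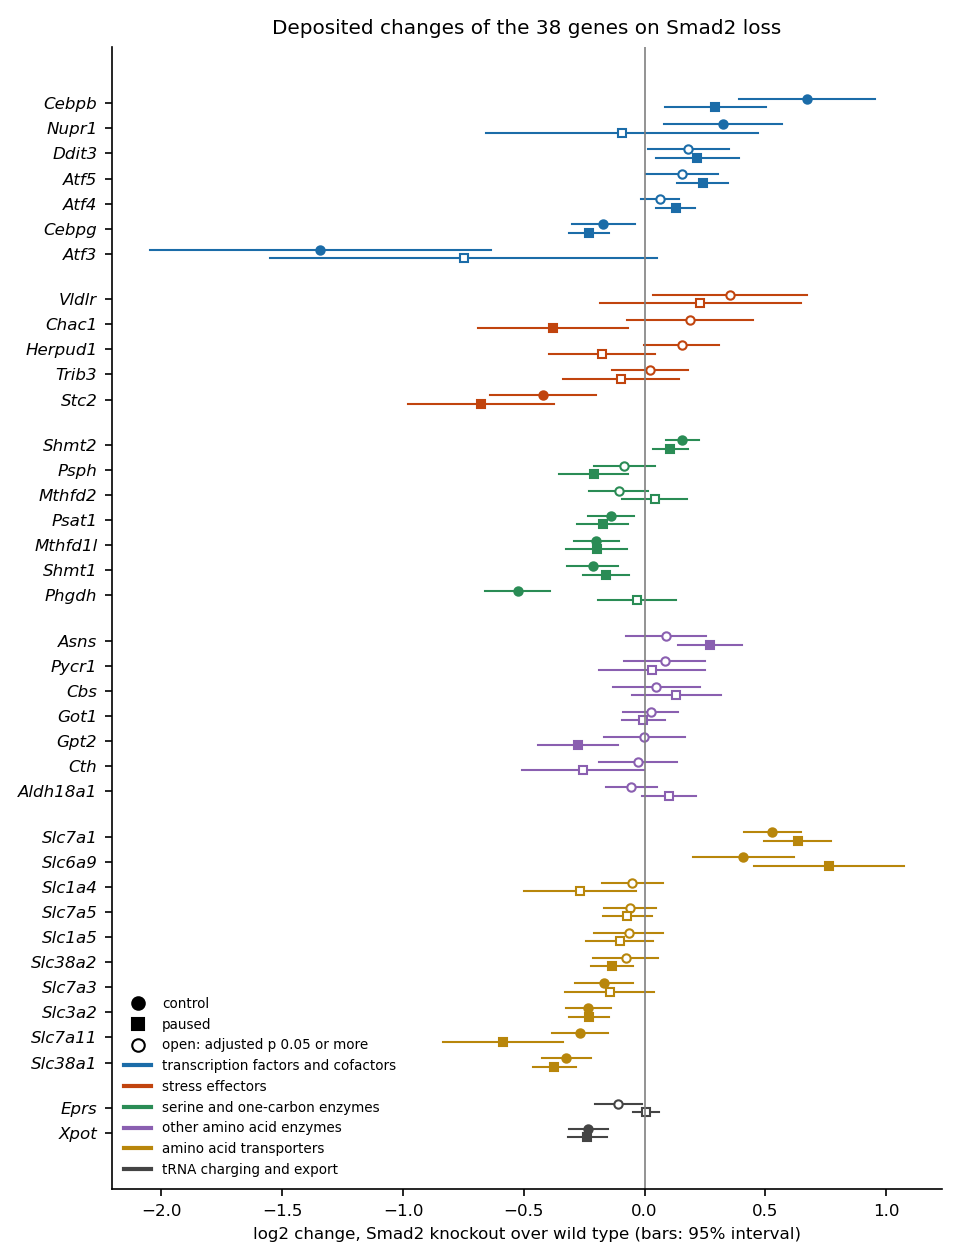
Log2 change of the 38 genes, Smad2 knockout over wild type, in control (circles) and paused cells (squares), with 95% intervals as bars and open symbols where the adjusted p was 0.05 or more. Most points lie between -0.7 and 0.7; Atf3 in control cells (-1.34) is the only called change of 2-fold or more.

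Among the transcription factors the largest changes were opposite in sign. In control cells Atf3 fell by 1.34 in the knockout (log2, SE 0.36, adjusted p = 9.28e-04), a fold of 0.394, per the authors' deposited table. Its change in paused cells was -0.75 (SE 0.41, adjusted p = 0.130) per the authors' deposited table, and at means of 156 and 83.3 counts it was measured with wide intervals. Cebpb rose 1.59-fold in control cells (log2 0.67, SE 0.14, adjusted p = 2.21e-05) and 1.23-fold in paused cells (log2 0.29, SE 0.11, adjusted p = 0.0172) per the authors' deposited tables. Atf4 itself changed little, by 0.06 (SE 0.04, adjusted p = 0.199) in control and by 0.13 (SE 0.04, adjusted p = 0.00672) in paused cells per the authors' deposited tables. The paused value passed the test and amounts to a rise of 9.31%. Atf5 rose by 0.24 (SE 0.05, adjusted p = 4.22e-05) and Ddit3 by 0.22 (SE 0.09, adjusted p = 0.0330) in paused cells per the authors' deposited table; in control cells their changes of 0.16 and 0.18 did not pass. Cebpg fell in both conditions, by 0.17 (SE 0.07, adjusted p = 0.0266) and 0.23 (SE 0.04, adjusted p = 6.98e-07), per the authors' deposited tables. Its control call was lost with equal summed counts (adjusted p = 0.155). Nupr1 rose 1.25-fold in control cells (adjusted p = 0.0255) per the authors' deposited table, and had too few counts in paused cells for a precise value (log2 change -0.09, SE 0.29). Of the 7 factors, then, 4 passed in control and 5 in paused cells, against 41.4% and 42.6% of all genes. Cebpb overlaps the opposite-strand gene Tmem189 over 20.7% of its exon bases, and how the counting treated strand is not given in the sources used here, so its change is uncertain; Tmem189 had a change of 0.02 in control and 0.24 in paused cells per the authors' deposited tables.

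Of the 5 stress effectors Stc2 alone was called in both conditions. It fell by 0.42 (SE 0.11, adjusted p = 8.45e-04) in control and by 0.68 (SE 0.15, adjusted p = 6.25e-05) in paused cells per the authors' deposited tables. Chac1 had a change of 0.19 (SE 0.13, adjusted p = 0.263) in control cells and fell by 0.38 (SE 0.16, adjusted p = 0.0409) in paused cells per the authors' deposited tables. The paused call was lost with equal summed counts (adjusted p = 0.0686). Trib3, Herpud1 and Vldlr were not called, with changes of 0.02 to 0.35 in control and -0.18 to 0.23 in paused cells per the authors' deposited tables.

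Serine synthesis held the 1 change that differed between conditions by the test of the difference given further on. Phgdh, the first and committed enzyme of the route, fell to a fold of 0.694 in knockout control cells (log2 -0.53, SE 0.07, adjusted p = 4.77e-13) per the authors' deposited table. In paused cells its change was -0.03 (SE 0.08, adjusted p = 0.783) per the authors' deposited table. Psat1, the next enzyme, fell by 0.14 (SE 0.05, adjusted p = 0.0130) and 0.17 (SE 0.05, adjusted p = 0.00420) per the authors' deposited tables, the former not called with equal summed counts (adjusted p = 0.163). Psph, the last, had a change of -0.08 in control cells and fell by 0.21 (SE 0.07, adjusted p = 0.0114) in paused cells per the authors' deposited tables. The drop of Phgdh was thus the largest of the 3 steps in control cells and the smallest in paused cells. Phgdh has 8 processed pseudogenes at least 95% identical over 200 bases or more, none of them listed in the deposited tables, so reads may have been split between copies. Psph shares 10.4% of its exon bases with Cct6a on the opposite strand, which fell by 0.21 in control and 0.12 in paused cells per the authors' deposited tables.

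The cytosolic and mitochondrial serine-splitting enzymes changed in opposite directions. Shmt1 fell by 0.22 (SE 0.05, adjusted p = 2.65e-04) and 0.16 (SE 0.05, adjusted p = 0.00366), while Shmt2 rose by 0.16 (SE 0.03, adjusted p = 4.29e-05) and 0.11 (SE 0.04, adjusted p = 0.0120), per the authors' deposited tables. Mthfd1l fell by 0.20 in both conditions (SE 0.05 and 0.06, adjusted p = 1.67e-04 and 0.00700) per the authors' deposited tables. Mthfd2, with the lowest paused level of this role relative to control, was not called in either condition, at -0.11 and 0.04 per the authors' deposited tables.

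Of the 7 other amino acid enzymes, 0 were called in control and 2 in paused cells per the authors' deposited tables, against 41.4% and 42.6% of all genes. In control cells none had an unadjusted p under 0.05, and changes ranged from -0.05 to 0.09 per the authors' deposited table. In paused cells Asns rose by 0.27 (SE 0.07, adjusted p = 3.21e-04) and Gpt2 fell by 0.27 (SE 0.08, adjusted p = 0.00418) per the authors' deposited table. The other 5, Aldh18a1, Pycr1, Cth, Cbs and Got1, had changes of -0.25 to 0.13 that did not pass in that table.

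Among the 10 transporters, Slc7a1 and Slc6a9 rose in both conditions, and Slc7a11, Slc3a2 and Slc38a1 fell in both. Slc7a1, the main carrier of arginine and lysine, rose 1.44-fold in control cells (log2 0.53, SE 0.06, adjusted p = 1.24e-16) and 1.55-fold in paused cells (log2 0.63, SE 0.07, adjusted p = 1.43e-17) per the authors' deposited tables. Its close relative Slc7a3 fell by 0.17 (SE 0.06, adjusted p = 0.0182) in control cells and had a change of -0.14 that did not pass in paused cells per the authors' deposited tables. The former call was lost with equal summed counts (adjusted p = 0.135), although its direction, opposite to that of Slc7a1, stayed the same. Slc6a9, a glycine transporter with means of 249 and 85.8 normalized counts, rose 1.33-fold (log2 0.41, SE 0.11, adjusted p = 5.50e-04) and 1.70-fold (log2 0.77, SE 0.16, adjusted p = 9.39e-06) per the authors' deposited tables. It shares 27.8% of its exon bases with the opposite-strand gene Ccdc24, whose own changes were -0.87 and -0.20 per the authors' deposited tables. Slc7a11, the cystine carrier, fell by 0.27 (SE 0.06, adjusted p = 4.90e-05) and 0.59 (SE 0.13, adjusted p = 2.13e-05) per the authors' deposited tables. Its partner Slc3a2, the heavy chain shared with Slc7a5, fell by 0.23 in both conditions (SE 0.05 and 0.04, adjusted p = 8.46e-06 and 5.27e-07) per the authors' deposited tables. Slc38a1, a glutamine carrier, fell by 0.32 (SE 0.05, adjusted p = 5.64e-09) and 0.37 (SE 0.04, adjusted p = 2.88e-15) per the authors' deposited tables. Slc38a2 had a change of -0.08 in control cells and fell in paused cells by 0.13 (SE 0.04, adjusted p = 0.00889) per the authors' deposited tables, a call lost with equal summed counts (adjusted p = 0.0649). Slc1a4, Slc1a5 and Slc7a5 were called in neither condition, with changes of -0.07 to -0.05 in control and -0.27 to -0.07 in paused cells per the authors' deposited tables.

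Of the 2 tRNA genes, Xpot fell by 0.23 (SE 0.04, adjusted p = 2.50e-07) in control and 0.24 (SE 0.04, adjusted p = 6.47e-08) in paused cells per the authors' deposited tables. It has a pseudogene, Gm7389, that is 95.6% identical over the aligned part and is not listed in the deposited tables. Eprs was not called in either condition, at -0.11 and 0.00 per the authors' deposited tables.

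Whether pausing altered the effect of Smad2 loss was tested directly, as the paused minus the control change over all 19134 genes with Benjamini-Hochberg adjustment. Phgdh was the only gene of the 38 that passed, with a difference of 0.49 (95% interval 0.284 to 0.703, adjusted p = 0.00171); 1.44% of all genes passed, so 1 of 38 is close to the background. Its change went from -0.53 in control to -0.03 in paused cells per the authors' deposited tables, and its paused level was 38.5% of control. With the scaled statistic this difference had an adjusted p of 0.0763. Another 7 genes had an unadjusted p under 0.05, which makes 8 of 38 against 2464 of all 19134 genes, and none of the 7 passed after adjustment. The largest of these differences was that of Chac1, at -0.57 (95% interval -0.970 to -0.161, adjusted p = 0.156). It was followed by Cebpb at -0.38 (adjusted p = 0.331), Herpud1 at -0.33 (adjusted p = 0.240) and Slc7a11 at -0.32 (adjusted p = 0.280). Atf3 had the largest difference of the 38, at 0.59 (95% interval -0.475 to 1.66, adjusted p = 0.721), with a wide interval and an unadjusted p of 0.277. The 4 genes called in control cells only and the 8 called in paused cells only are, except Phgdh, not shown to differ between conditions.

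**Figure D5:**
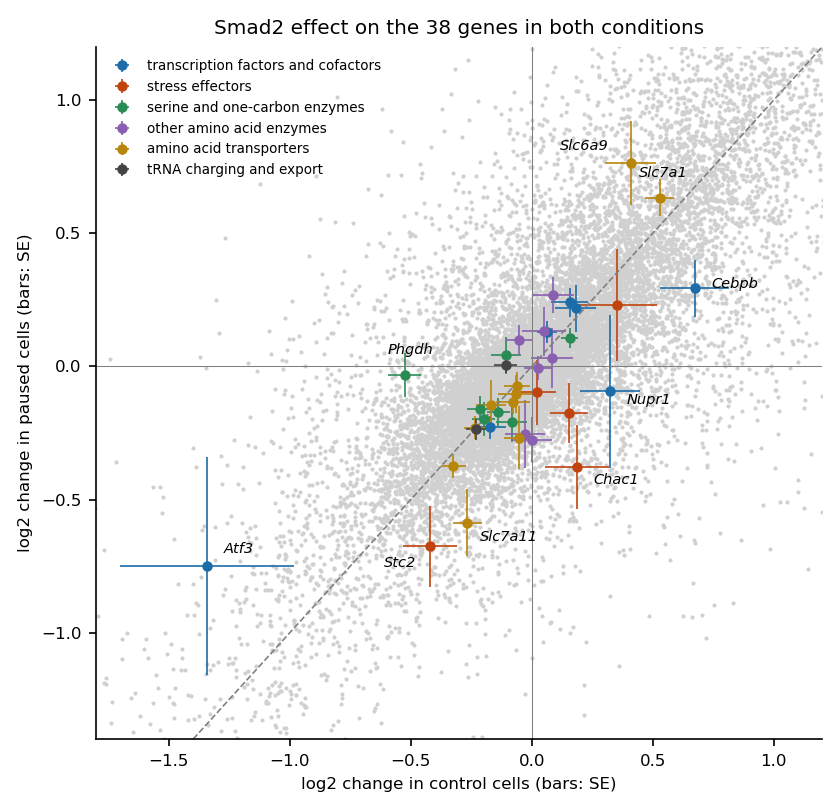
Log2 change on Smad2 loss in paused cells against that in control cells for the 38 genes (coloured by role, bars: SE) and all other genes (grey); the dashed line marks equal change. Phgdh (-0.53 in control, -0.03 in paused cells) lies off the line, while Slc7a1, Slc6a9, Stc2 and Slc7a11 lie in the quadrants of like sign. Atf3 and Chac1 lie farther off the line than Phgdh, with larger SEs, and their differences did not pass.

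Lists of other genes of the same pathways are given by their calls on Smad2 loss, and no list was tested. They are to be read against the 41.4% of all genes called in control and 42.6% in paused cells. Among genes at 5 ppm or more these shares are 50.0% and 51.6%. Of 14 upstream eIF2alpha genes, 3 rose and 3 fell in control cells and 3 rose and 4 fell in paused cells per the authors' deposited tables, or 42.9% and 50.0%, near the background. Eif2ak3, the PERK kinase, rose by 0.24 (SE 0.05, adjusted p = 7.99e-07) in control cells and had a change of 0.03 (adjusted p = 0.467) in paused cells per the authors' deposited tables. Of 21 further ATF4-linked or stress genes, 10 rose and 5 fell in control cells (71.4% called) and 6 rose and 5 fell in paused cells (52.4%) per the authors' deposited tables. This list held 1 called change of at least 2-fold in control and 3 in paused cells, against 6.98% and 7.10% of all genes. Trib2, a pseudokinase related to Trib3, had log2 changes of -1.08 and -1.83 (adjusted p = 4.14e-14 and 1.05e-12), the largest called in this list, per the authors' deposited tables. It was named after its values were seen. Ndrg1, a stress and hypoxia gene, rose by 0.68 and 1.27 (adjusted p = 1.19e-17 and 1.02e-24) and Vegfa, an angiogenic growth factor, by 0.59 and 0.39 (adjusted p = 1.90e-13 and 6.10e-08) per the authors' deposited tables. Of 20 genes of the ATF6 and XBP1 branches, 4 rose and 4 fell in control cells (40.0% called) and 3 rose and 9 fell in paused cells (60%) per the authors' deposited tables. Xbp1, whose product drives one of these branches, rose by 0.44 and 0.63 (adjusted p = 3.70e-11 and 3.97e-38), and Hsp90b1, a chaperone, fell by 0.21 and 0.34 (adjusted p = 0.00656 and 1.32e-12), per the authors' deposited tables.

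Genes of amino acid metabolism beyond the 38 included larger changes. Of 22 further amino acid enzymes, 4 rose and 12 fell in control cells (72.7% called) per the authors' deposited table. In paused cells 5 rose and 12 fell (77.3%) per the authors' deposited table. The shares of all genes called lower were 21.9% and 22.0%. At 5 ppm or more, 50.0% and 51.6% of all genes were called in either direction. The difference from these shares was not tested. Tdh, the threonine dehydrogenase on which mouse embryonic stem cells depend, fell by 0.48 and 0.46 (adjusted p = 1.12e-12 and 2.69e-11) per the authors' deposited tables. Of 25 further transporters in control cells 6 rose and 6 fell (48.0% called), and of 24 in paused cells 5 rose and 6 fell (45.8%), per the authors' deposited tables. Slc1a1, a glutamate carrier, rose by 1.57 and 1.43 (adjusted p = 4.60e-36 and 2.96e-49), and Slc7a7, a light chain that exports cationic amino acids, fell by 1.08 and 0.96 (adjusted p = 2.71e-17 and 1.98e-18), per the authors' deposited tables. Of 20 further one-carbon genes, 5 rose and 7 fell in control cells (60% called) and 3 rose and 7 fell in paused cells (50.0%) per the authors' deposited tables. For 19 tRNA synthetases the counts were 1 higher and 6 lower in control (36.8% called) and 3 higher and 7 lower in paused cells (52.6%) per the authors' deposited tables. Ahcy, which clears S-adenosylhomocysteine, fell by 0.40 and 0.22 (adjusted p = 2.55e-23 and 2.09e-15) per the authors' deposited tables.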

How the data were processed

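The authors deposited 2 results tables, for control and paused cells, whose columns, per the file headers, are those of DESeq2, the authors' tool. The mean normalized count is a signal value averaged by the authors over libraries that are not named; the change is a log2 ratio with its SE on the log2 scale as deposited; the statistic is a score, deposited with its p-value and adjusted p-value. The submitters' processing notes name FastQC, Trim Galore, HISAT2, featureCounts, DESeq2 and the build mm10. The annotation, use of strand and whether both knockout lines entered each fit are not given in the sources used here. The statistic equalled change over SE, and recomputed adjusted p-values differed by under 1 percent. Depth per library is unknown; the median SE was 0.11 in control and 0.10 in paused cells.

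The tables hold 19780 and 19979 genes, with 2 genes lacking a p in control. Deposited tests were used as they stand, since the tables hold no counts of single libraries for the planned count test. The difference between conditions was set against its SE, the square root of the sum of both squared SEs, with a two-sided normal p adjusted over 19134 genes. This step was tested on simulated data with 200 genes changed 2-fold. Of these, 76.5% were recovered, 98.0% of the 147 with an SE under 0.25, and 4.38% of calls were false. The simulation took the deposited SEs as the true spread, so these shares do not give the error among the real calls. The real difference statistic had a middle spread of 1.23 in place of that of a standard normal. Tables were set side by side as ppm of summed means. Copies were found with minimap2 2.31 (at least 200 aligned bases, 95% identity). Promoters and coordinates are RefSeq's for GRCm38.p6, the assembly that mm10 names, and exon lengths are from the reference annotation. Python 3.11.15, numpy 2.4.6, scipy 1.17.1 and pandas 2.3.3 were used. Columns of values from other samples numbered 0.

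The 38 genes and the pathway and marker lists were chosen with earlier results of these data known. A gene of the 38 is given with its values where called in either condition or for the difference, and others by range. Per pathway list at most 4 genes could be named, those with the largest called change at 5 ppm or more; genes with a called difference were added. Alternatives were an adjusted p under 0.01, a 2-fold threshold, a test that the change exceeds 1.2-fold, a statistic scaled to its middle spread, centring on the median gene, equal summed counts and a minimum of 5 ppm.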

Additional observations from a re-analysis of the deposited data

Results flagged for a closer look

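In 9 genes the effect of Smad2 loss differed between paused and control cells at an adjusted p under 0.05 for the difference itself, 1 of them among the 38 genes and 8 among the 138 genes of the neighbouring lists measured in both conditions. Differences are paused minus control change on the log2 scale. Phgdh, the first enzyme of serine synthesis, had a difference of 0.49 (adjusted p = 0.00171). The positive differences among the neighbours were those of Ndrg1, at 0.59 (adjusted p = 0.00609), Vars, the valyl-tRNA synthetase, at 0.26 (adjusted p = 0.0169), Eif2b1, a subunit of the exchange factor for eIF2, at 0.20 (adjusted p = 0.0106), and Ahcy at 0.18 (adjusted p = 0.0143). The negative ones were Mat2a, which makes S-adenosylmethionine, at -0.28 (adjusted p = 0.00342), Manf, a secreted factor of the endoplasmic reticulum, at -0.24 (adjusted p = 0.00615), Sel1l, of protein degradation there, at -0.21 (adjusted p = 0.0273), and Eif2ak3 at -0.21 (adjusted p = 0.0298). Over all genes 275 of 19134 passed this test.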

How the results depend on the processing

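No paired analysis was possible because the deposited tables hold no values of single libraries; for the same reason tests that leave out a replicate, count tests with other normalizations and low-count filters were not run. With a 2-fold threshold the 17 calls in control cells became 1, the 21 in paused cells 0 and the called difference 0. In a test that the change exceeds 1.2-fold they became 4, 2 and 0, and with the scaled statistic 0, 0 and 0, where the middle spread of the deposited statistic was 2.76, 2.80 and 1.23 in place of that of a standard normal. The other alternatives gave 13 to 19 calls in control cells, 16 to 21 in paused cells and 1 difference, and no called change reversed its sign. Atf3, Cebpb, Phgdh and Slc7a1 in control and Slc6a9 and Slc7a1 in paused cells kept their calls under each alternative run for them but the 2-fold threshold and the scaled statistic; Atf3 in control and Slc6a9 in paused cells lie under the minimum of 5 ppm, which was not run for them. Atf3 also passed the 2-fold threshold. The level was at least 2-fold lower for 17 genes with means as deposited and 18 after centring. Promoter matches went from 11 to 2 genes with TGATGCAAT. The tables' SEs limit low genes such as Atf3 and Nupr1.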
